A study of Mus musculus with 12 samples.

Results

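The genes described here are the 7 mouse inhibitors of cyclin-dependent kinases, Cdkn1a, Cdkn1b, Cdkn1c, Cdkn2a, Cdkn2b, Cdkn2c and Cdkn2d. They were found as the non-control probes whose RefSeq accession maps to one of these symbols, which gave 8 of the 41174 probes and 7 of the 16535 named genes on the array. Total RNA came from the esophagus and the liver of 6 male mice of about 8 months on a mixed 129Sv/C57BL6 background, with 1 single-colour array per organ and mouse. The 3 TG mice were Col1a1tetO-Nanog/+;Rosa26rtTA/+ and the 3 CTR mice were Col1a1+/+;Rosa26rtTA/+, so both genotypes carried the doxycycline-controlled activator and only the TG mice carried Nanog, a transcription factor of pluripotent cells, behind its operator. The activator is expressed from Rosa26, a locus active in most tissues, so induction was not aimed at one cell type. All 6 mice drank 7.5% sucrose with doxycycline at 0.2 mg/ml for 48 h, and there was no group without doxycycline. The comparisons ask whether the inhibitors differ between TG and CTR mice in each organ, and between the organs of the same mice.

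Cyclin-dependent kinases drive cells from one phase of the division cycle to the next, and their inhibitors hold that step back. Cdkn1a (p21), Cdkn1b (p27) and Cdkn1c (p57) form the Cip/Kip family, which binds complexes of several cyclins with their kinases. Cdkn2a (p16), Cdkn2b (p15), Cdkn2c (p18) and Cdkn2d (p19) form the INK4 family, which binds Cdk4 and Cdk6 and keeps them from D-type cyclins, and the Cdkn2a locus also encodes Arf, a regulator of p53. In a stratified epithelium such as that of the esophagus, division is kept to the lower layers and inhibitors accompany the exit from the cycle, whereas most hepatocytes of an adult liver rest outside it.

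Signal is given as log2 of the processed spot intensity minus the 75th percentile of that array, so 0 is the level of that percentile and a value of 1 more is a 2-fold higher signal. The percentile itself ran from 8.88 to 10.07 on the log2 scale, and 56.35% to 81.84% of the probes on an array were well above background by the scanner software's call. On 0 of the 12 arrays was the Nanog probe well above background, and whether the transgene carries its sequence is not given in the labels, so it does not check the genotypes. The organ labels were borne out by markers given as summed signal in multiples of the percentile: 9 hepatocyte markers summed to between 3794 and 4702 on the liver arrays and between 1.27 and 3.58 on the esophagus arrays. The 10 basal keratinocyte markers summed to between 457.7 and 596.3 on the esophagus arrays and between 2.16 and 3.12 on the liver arrays. The esophagus samples held striated muscle as well, whose 10 markers summed to between 1407 and 1681 there. Such samples are mixtures, so fewer cells of a type and less RNA per cell cannot be told apart.

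Promoter windows of 250 bases before the RefSeq start are shown for Cdkn1a and Cdkn2b, the genes with the largest gap between the organs, and for Cdkn1b, which was not called different between them. They come from RefSeq on GRCm38.p6, whose table held windows for 6 of the 7 genes, all but Cdkn1c. Cdkn1a has 2 starts on chromosome 17, 2790 bases apart, and the upstream window is chr17:29090729-29090978 and the downstream one chr17:29093519-29093768, both on the plus strand. The Cdkn1b window is chr6:134920151-134920400 on the plus strand and the Cdkn2b window chr4:89311033-89311282 on the minus strand, each printed 5′ to 3′ along its gene. Capitals mark GGGCGG (the GC box) on either strand and, in the upstream Cdkn1a window, a 20-base match to the p53 response element.
Cdkn1a upstream start: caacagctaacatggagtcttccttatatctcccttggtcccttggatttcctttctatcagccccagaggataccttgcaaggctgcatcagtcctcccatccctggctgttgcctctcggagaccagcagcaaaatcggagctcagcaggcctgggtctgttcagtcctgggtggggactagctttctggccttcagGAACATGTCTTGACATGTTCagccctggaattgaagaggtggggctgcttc
Cdkn1a downstream start: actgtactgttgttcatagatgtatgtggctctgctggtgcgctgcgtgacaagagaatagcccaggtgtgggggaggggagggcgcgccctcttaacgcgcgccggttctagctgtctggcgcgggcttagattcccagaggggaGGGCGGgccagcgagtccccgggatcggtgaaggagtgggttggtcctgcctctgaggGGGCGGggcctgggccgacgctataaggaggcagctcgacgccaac
Cdkn1b: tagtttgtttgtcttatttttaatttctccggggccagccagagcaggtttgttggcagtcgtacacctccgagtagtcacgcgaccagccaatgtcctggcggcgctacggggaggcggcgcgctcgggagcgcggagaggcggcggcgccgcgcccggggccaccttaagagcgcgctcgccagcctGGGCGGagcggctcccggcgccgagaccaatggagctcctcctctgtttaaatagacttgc
Cdkn2b: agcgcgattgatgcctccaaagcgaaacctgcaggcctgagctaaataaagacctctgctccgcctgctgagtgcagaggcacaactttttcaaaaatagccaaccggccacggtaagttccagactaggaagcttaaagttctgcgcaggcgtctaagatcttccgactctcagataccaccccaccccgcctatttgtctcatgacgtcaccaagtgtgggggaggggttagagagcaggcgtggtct
The p53 element was searched by its published consensus, as a pair of adjacent 10-base sites with no spacer and at most 1 mismatch over the 20 bases. The mismatch was not allowed at the core C or G of the first site. Its match in the upstream Cdkn1a window, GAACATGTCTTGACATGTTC, starts 51 bases before that start and has 1 mismatch, and 0.07% of the 32817 windows of this length in the table hold such a match. The downstream Cdkn1a window holds 2 GC boxes, the Cdkn1b window holds 1, and the Cdkn2b window holds none of these letters, against 32.721% of all windows with at least 1. CCAAT, searched on both strands, was found 2 times in the Cdkn1b window and in neither Cdkn1a window nor that of Cdkn2b, and 33.833% of all windows hold it. TATAAA was in none of the 9 windows of the 6 genes and in 12.372% of all windows. These matches describe the letters of the windows and show no binding.

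Of the 7 genes, 6 had signal that could be tested, and 5 of them were higher in the esophagus than in the liver, in CTR and in TG mice alike. In CTR mice the difference between esophagus and liver was 16.7-fold for Cdkn1a, 14.9-fold for Cdkn2b, 4.88-fold for Cdkn2c, 4.30-fold for Cdkn1c and 1.81-fold for Cdkn2d, while Cdkn1b was not called. A call here is an adjusted p under 0.05 in the limma fit over all units (genes, and probes without a gene name) tested in the comparison. Such calls were frequent between these organs, with 62.4% of 23364 units called in CTR mice, 27.8% higher and 34.6% lower in the esophagus. In TG mice 63.3% of 23911 were called, 24.3% higher and 38.9% lower. The 5 of 6 inhibitors called higher are to be read against those shares. Values of the 5 did not overlap between the organs, against 31.2% of units higher without overlap in CTR mice and 26.8% in TG mice. Per the labels' protocols the organs had different RNA kits, and an effect of the organ cannot be told apart from one of the kit.

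**Figure D1:**
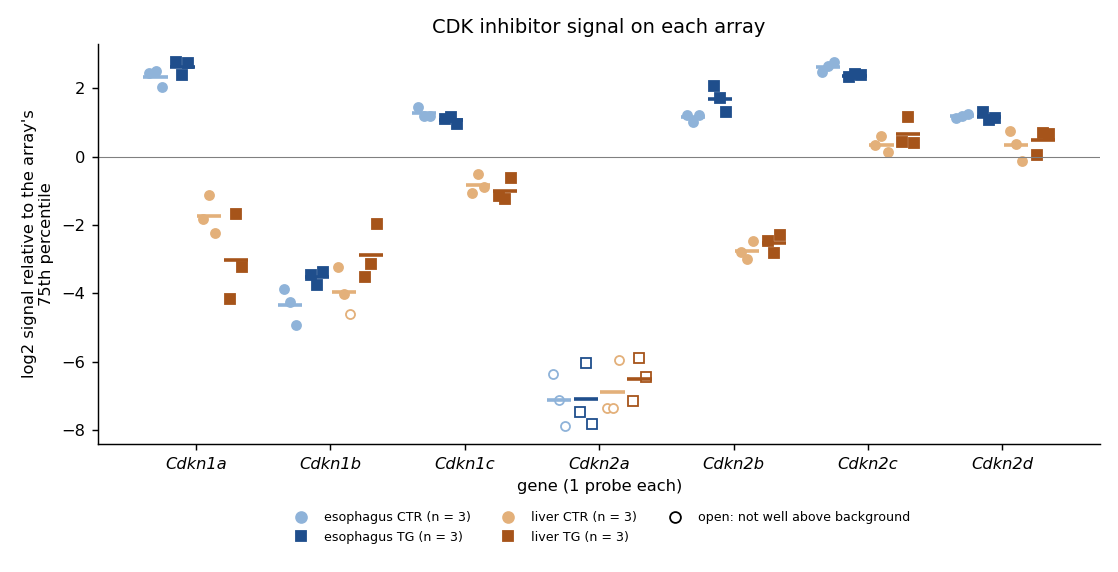
Log2 signal relative to the array's 75th percentile (y axis) for 1 probe of each CDK inhibitor (x axis), by group; each point is an array, bars are group means over 3 mice, and open points are not well above background. Esophagus points lie above all liver points of the same gene for Cdkn1a, Cdkn1c, Cdkn2b, Cdkn2c and Cdkn2d, and all Cdkn2a points are open; heights of different genes are not comparable because probes differ.

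Cdkn1a, the Cip/Kip inhibitor induced by p53 and in cells leaving the cycle, showed a wide gap. In the esophagus its log2 signal was 2.46, 2.50 and 2.05 in CTR mice 1 to 3 and 2.77, 2.39 and 2.75 in TG mice 1 to 3. In the liver it was -1.82, -1.12 and -2.25 in CTR mice and -4.17, -1.69 and -3.23 in TG mice. Esophagus values stayed within a narrow band, and liver values were lower and spread widely, with TG mouse 1 the lowest. The esophagus exceeded the liver by 4.06 in CTR mice (SE 0.52, 95% interval 2.90 to 5.22, adjusted p 6.08e-05) and by 5.67 in TG mice (SE 0.52, interval 4.51 to 6.82, adjusted p 5.06e-06). Both intervals use a spread shared by all groups, whereas the SD between TG mice was 1.25 in the liver and 0.21 in the esophagus. The size in TG mice moved with the setting, to 5.10 without liver TG mouse 1, 6.33 without liver TG mouse 2, 4.65 with normexp and 6.76 with quantile normalization within each organ, or 25.1-fold to 108-fold, and it was called in each. Within single mice the gap ran from 3.62 to 6.93, with a median of 4.28, and was positive in 6 of 6.

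Cdkn1c, an imprinted Cip/Kip gene known for its part in development and in quiescent cells, had a smaller and steadier gap. Its esophagus signal was 1.45, 1.19 and 1.18 in CTR mice and 1.11, 1.17 and 0.96 in TG mice. Its liver signal was -1.07, -0.52 and -0.89 in CTR mice and -1.14, -1.24 and -0.62 in TG mice. No liver value reached the lowest esophagus value in either genotype. The gap was 2.10 in CTR mice (SE 0.21, interval 1.64 to 2.57, adjusted p 8.86e-06) and 2.08 in TG mice (SE 0.21, interval 1.62 to 2.55, adjusted p 1.01e-05), or 4.30-fold and 4.23-fold.

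Cdkn1b, the Cip/Kip inhibitor best known for holding resting cells out of the cycle and for its turnover through Skp2, was a dim probe in both organs. Its esophagus signal was -3.88, -4.24 and -4.94 in CTR mice and -3.47, -3.74 and -3.36 in TG mice. Its liver signal was -3.22, -4.03 and -4.60 in CTR mice and -3.53, -3.13 and -1.96 in TG mice. The organs overlapped in both genotypes, and in liver CTR mouse 3 the probe was not well above background. Esophagus minus liver was -0.40 in CTR mice (SE 0.45, interval -1.40 to 0.60, adjusted p 0.461) and -0.65 in TG mice (SE 0.45, interval -1.65 to 0.35, adjusted p 0.23). With normexp background correction the TG difference of -0.74 was called (adjusted p 0.00814), and with quantile normalization within each organ both signs turned, to 0.07 and 0.21. A second Cdkn1b probe, printed once, was well above background on 3 arrays only, at -3.86 in esophagus CTR mouse 2, -2.07 in liver CTR mouse 3 and -4.19 in liver TG mouse 3. The probes disagreed, since liver CTR mouse 3 was the lowest liver by the brighter probe and the highest by the other one.

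Cdkn2b, the INK4 inhibitor known as a target of TGF-beta signalling through Smad proteins, had the second widest gap of the 7 in CTR mice and a small spread. Its esophagus signal was 1.21, 1.03 and 1.22 in CTR mice and 2.05, 1.72 and 1.30 in TG mice. Its liver signal was -2.78, -2.99 and -2.48 in CTR mice and -2.48, -2.82 and -2.30 in TG mice. Every liver value lay far below every esophagus value. The gap was 3.901 in CTR mice (SE 0.23, interval 3.40 to 4.41, adjusted p 1.46e-07) and 4.22 in TG mice (SE 0.23, interval 3.72 to 4.73, adjusted p 8.37e-08), and single mice ran from 3.60 to 4.54.

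Cdkn2c, an INK4 inhibitor expressed in many differentiating tissues, read 2.48, 2.66 and 2.76 in the esophagus of CTR mice and 2.32, 2.41 and 2.38 in that of TG mice. In the liver it read 0.33, 0.59 and 0.12 in CTR mice and 0.43, 1.16 and 0.39 in TG mice. The liver of TG mouse 2 was the highest liver and still below every esophagus. The gap was 2.29 in CTR mice (SE 0.22, interval 1.80 to 2.78, adjusted p 7.06e-06) and 1.71 in TG mice (SE 0.22, interval 1.22 to 2.20, adjusted p 6.49e-05).

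Cdkn2d, the INK4 inhibitor whose level is known to change over the cell cycle, had the smallest called gap. Its esophagus signal was 1.13, 1.18 and 1.24 in CTR mice and 1.31, 1.07 and 1.12 in TG mice. Its liver signal was 0.76, 0.36 and -0.13 in CTR mice and 0.06, 0.69 and 0.67 in TG mice. Livers varied more than esophagi, and no liver reached the lowest esophagus. The gap was 0.85 in CTR mice (SE 0.24, interval 0.31 to 1.39, adjusted p 0.0107) and 0.69 in TG mice (SE 0.24, interval 0.15 to 1.23, adjusted p 0.0292). The call in TG mice was not kept with each animal as a fixed block (adjusted p 0.0646) or with the replicate number as a block (adjusted p 0.0894). Leaving out liver TG mouse 1 or any one TG esophagus also ended it, with adjusted p of 0.0519 to 0.108, as did leaving out both esophagi of TG mouse 1 and CTR mouse 1 (adjusted p 0.114), while the difference stayed between 0.49 and 0.74 in those fits.

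Cdkn2a, the INK4 gene known for its induction in ageing and senescent cells, was not detected. Its probe was printed 10 times per array and was well above background on 0 of the 12 arrays. Its esophagus values were -6.36, -7.11 and -7.88 in CTR mice and -7.46, -6.04 and -7.81 in TG mice. Its liver values were -7.34, -7.35 and -5.94 in CTR mice and -7.14, -5.88 and -6.45 in TG mice, and no group stood apart. The spots of one array differed by an SD of 0.20 to 0.63. Cdkn2a was therefore not tested, and the adjacent gene on chromosome 4, Cdkn2b, was well above background on every array. The locus has 2 RefSeq transcripts, and which of them this probe reads was not checked, so it does not tell p16 from Arf.

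**Figure D2:**
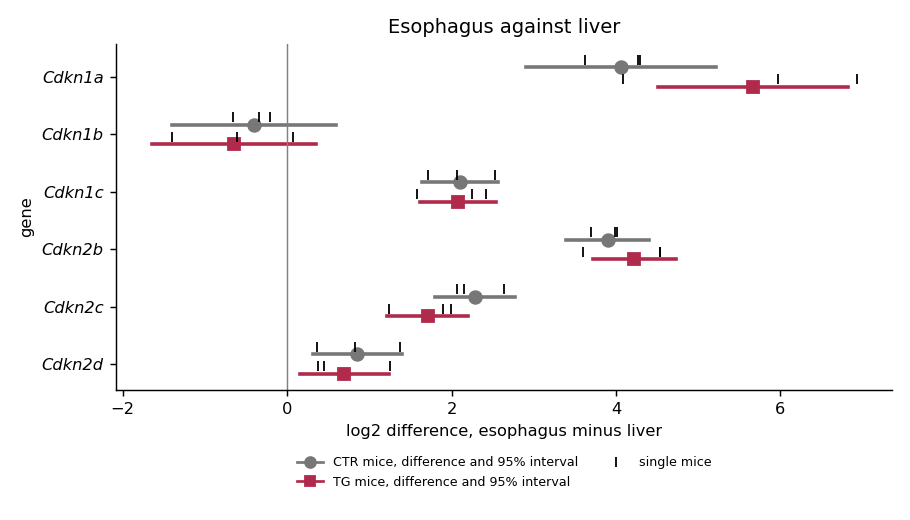
Difference in log2 signal between esophagus and liver (x axis) for the 6 tested CDK inhibitors (y axis), in CTR and TG mice; symbols and lines are the limma estimate with its 95% interval and ticks are single mice. All ticks of Cdkn1a, Cdkn1c, Cdkn2b, Cdkn2c and Cdkn2d lie to the right of 0, and the intervals of Cdkn1b cross 0 in both genotypes.

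The organ calls were compared with the scaling of the arrays, since it moved all units together. The median difference over all units was -0.14 in CTR mice and -0.36 in TG mice, and over the 5 scalings tried it ran from -0.27 to 0.53 and from -0.46 to 0.48. Of the units called in CTR mice, 44.6% were higher in the esophagus with the 75th percentile and 69.8% with quantile normalization within each organ; in TG mice the shares were 38.5% and 68.6%. The 5 inhibitors were above that median under each of the 5 scalings. Cdkn2d, the smallest, exceeded it by 0.96 to 1.13 in CTR mice and by 0.74 to 1.13 in TG mice. Arrays of both organs shared a slide 2 times within CTR mice and 2 times within TG mice, and in these 4 pairs the gap was 3.57, 3.86, 6.93 and 4.44 for Cdkn1a and 4.19, 4.003, 4.53 and 4.12 for Cdkn2b. For Cdkn2d it was 0.78, 0.47, 1.25 and 0.43. Only the pair on slide 3, TG mouse 1, joined organs of the same mouse. The values of these genes did not overlap between the organs, so the sign of each pair was fixed beforehand. The pairs therefore give sizes and do not check for an effect of the slide.

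The rest of the pathway was read from lists of genes. Of 11 kinases and cyclins tested in CTR mice, 3 were called higher in the esophagus and 1 lower, with a median difference of 0.48 against -0.14 over all units. Ccnd2 and Ccnd1, the D-type cyclins that pair with the kinases bound by INK4 proteins, were higher by 4.21 and 1.82 (adjusted p 2.83e-07 and 0.00342). Cdk6, one of those kinases, was lower by 1.39 (log2 difference -1.39, adjusted p 0.00077), and the difference for Cdk4, the other, was 0.48 (adjusted p 0.0847). Of 8 Rb and E2F genes, which act downstream of the kinases, 3 were called higher and 1 lower, with Rb1 at 1.60 and Rbl1 at 1.64 among the higher. E2f5 went the other way in CTR mice, with -2.31, -2.13 and -2.44 in the esophagus and -1.42, -1.65 and -1.39 in the liver. Of 15 mitosis genes 10 were called higher and 0 lower in CTR mice, with a median of 1.16. All 15 were well above background on each CTR esophagus array, but only 9 to 11 of them on a CTR liver array. Some were thus tested only through the esophagus, so that count is partly set by the filter. Over all units 27.8% were called higher and 34.6% lower in this comparison.

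Known regulators of the inhibitors followed no single direction. Of 17 such genes, 10 were called higher in the esophagus of CTR mice and 4 lower. These counts and those of the 2 lists below are to be read against 27.8% of all units called higher and 34.6% lower. Klf4, a factor of differentiating epithelia that can induce Cdkn1a, was higher by 6.97. Trp63, the p53 relative of basal keratinocytes, was among the called genes but was well above background on 0 of the 6 liver arrays, so no size is given. Smad3, a carrier of TGF-beta signals, was higher by 2.64 (adjusted p 3.94e-06), and Cbx7, a Polycomb protein known to repress the Cdkn2a locus, by 1.36 (adjusted p 0.00014). These 4 all lay on the higher side, and others of the list went the other way. In CTR mice Cebpa read 2.60, 2.71 and 2.55 in the esophagus and 3.97, 4.22 and 4.47 in the liver. Foxo1 read 1.69, 1.72 and 1.52 in the esophagus and 2.17, 2.81 and 2.75 in the liver. Of 19 tested p53 targets other than Cdkn1a, 8 were called higher and 6 lower, with a median of 0.29 against -0.14 over all units. Phlda3 was higher by 6.68 and Ccng1 by 2.83, while Gdf15 and Fas differed by -2.95 and -2.13. Of 8 genes for ubiquitin ligase parts that act on p21 and p27, 1 was called higher (Dtl, 2.45) and 2 lower (Cul4b, -1.67, and Cks1b, -0.71). Dtl was not well above background in liver CTR mouse 3 and was tested only through the esophagus.

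Between TG and CTR esophagus no inhibitor was called. The limma fit called 0 of 23205 units (0%), with 924 (3.98%) at an unadjusted p under 0.05, among them 1 of the 6 tested inhibitors. The values of TG and CTR mice did not overlap for 4 of the 6, Cdkn1b and Cdkn2b higher and Cdkn1c and Cdkn2c lower in TG mice, against 12.5% of all units (6.34% higher and 6.14% lower). In the authors' deposited table, by contrast, only Cdkn1b and Cdkn2c of the 6 did not overlap. The values printed above show how close these groups lay: for Cdkn2c the highest TG value was 2.41 and the lowest CTR value 2.48.

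Cdkn2b had the smallest p of the inhibitors in this comparison. It was 1.45-fold higher in TG esophagus, a log2 difference of 0.54 (SE 0.23, interval 0.03 to 1.04, unadjusted p 0.0388, adjusted p 1). TG mouse 1 was the highest and TG mouse 3 lay just above the highest CTR mouse. Without TG mouse 1 the difference was 0.36 and without TG mouse 3 it was 0.73, and with both esophagi of TG mouse 1 and CTR mouse 1 left out it was 0.38. On slide 3, the one slide with a TG and a CTR esophagus, TG mouse 1 exceeded CTR mouse 2 by 1.03. These are the highest TG and the lowest CTR esophagus, so no other pair of a TG and a CTR mouse differs more. The median of 15 mitosis genes against the CTR mean was 1.76, 1.29 and 0.71 in TG mice 1 to 3, and the clock genes' median was -0.79, -0.78 and -0.13. The part of either in the Cdkn2b values was not tested.

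Cdkn1b was higher in TG esophagus by 0.83 (SE 0.45, interval -0.17 to 1.83, adjusted p 1), Cdkn1a by 0.30 (SE 0.52, interval -0.86 to 1.46, adjusted p 1). Cdkn2c differed by -0.26 (SE 0.22, interval -0.75 to 0.22), Cdkn1c by -0.19 (SE 0.21, interval -0.65 to 0.27) and Cdkn2d by -0.02 (SE 0.24, interval -0.55 to 0.52), each with adjusted p 1. With the median over both Cdkn1b probes its difference turned to -0.22. Of these esophagi, the second probe was well above background in CTR mouse 2 only. The interval of Cdkn1a reached a 2-fold change on the higher side, so a difference of that size lies within it. That interval uses a spread shared with the livers. The SD of Cdkn1a between mice of one group was 0.23 in the esophagus and 0.97 in the liver. No marker of other tissues was called. Of the endothelial markers 6 of 10 had a higher mean in TG esophagi, and of the smooth muscle markers 4 of 9. It was 3 of 10 for fibroblast and matrix, 1 of 7 for nerve and glia and 1 of 4 for thymocyte markers. The values of 5 further lists, whose means were mostly lower, follow. The mean of 9 of 10 heart muscle markers was lower in TG esophagi, and their sums ran from 269.1 to 288.9 in TG and from 287.5 to 476.9 in CTR mice. All 10 adipocyte markers had a lower mean, with sums of 56.3 to 216.5 in TG and 131.4 to 248.9 in CTR mice, and so had 6 of 8 airway markers, with sums of 99.4 to 205.1 and 157.8 to 433.6. The mean was also lower for 9 of 10 leukocyte markers, with sums of 66.3 to 151.2 and 78.8 to 134.03, and for 7 of 7 tested hepatocyte markers, with sums of 1.27 to 3.09 and 2.69 to 3.58. Sums of TG and CTR mice overlapped in all 5 of these lists, but medians per array against the CTR mean did not in each. For heart muscle markers these medians were -2.30 to -2.26 in TG and -1.47 to 1.57 in CTR mice. For hepatocyte markers they were -1.25 to -1.08 and -0.51 to 0.33, and for leukocyte markers -1.18 to -0.25 and -0.20 to 0.12. Those of adipocyte and airway markers overlapped. The part of these tissues in the differences of the inhibitors was not tested.

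**Figure D3:**
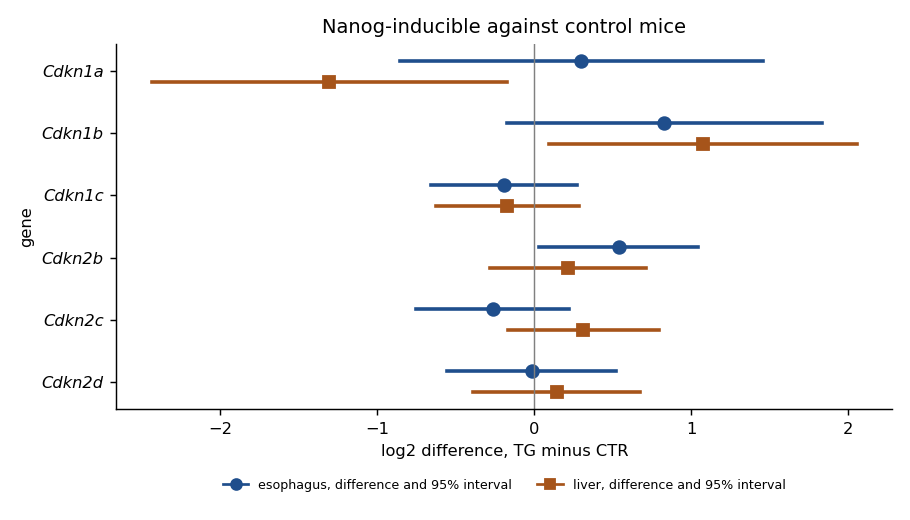
Difference in log2 signal between TG and CTR mice (x axis) for the 6 tested CDK inhibitors (y axis), in esophagus and liver; symbols and lines are the limma estimate with its 95% interval over 3 mice per group. The intervals lie to one side of 0 for Cdkn2b in esophagus (0.03 to 1.04) and for Cdkn1a (-2.43 to -0.17) and Cdkn1b (0.09 to 2.06) in liver, none of which passed adjustment over all units. The intervals use a spread shared by both organs.

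Mitosis genes were read in the same esophagus samples. All 15 tested had a higher mean in TG mice, with a median of 1.24 against -0.0033 over all units, and none was called. Ccnb1, the mitotic cyclin, was higher by 1.68 (adjusted p 0.531) and Ccna2, the cyclin of DNA replication, by 1.23. Both are among the 11 kinases and cyclins, of which 5 had a higher mean in TG mice, with a median of -0.27. Ccnd1 and Ccnd2 both differed by -0.97 (adjusted p 1), opposite in sign to the mitotic cyclin. Of 19 p53 targets other than Cdkn1a, 5 had a higher mean in TG esophagus, with a median of -0.12, and 0 were called.

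Between TG and CTR liver, Cdkn1a and Cdkn1b had the largest differences, of opposite sign, and neither was called. The fit called 0 of 21247 units (0%), with 1770 (8.33%) at an unadjusted p under 0.05, and the median over all units was 0.13. TG and CTR values overlapped for all 6 tested inhibitors, and 11.3% of all units had none (8.45% higher and 2.88% lower in TG mice). In the authors' deposited table the liver values of Cdkn1b did not overlap, TG mice being higher, and the other 5 overlapped. Cdkn1a was 2.47-fold lower in TG liver, a log2 difference of -1.30 (SE 0.51, interval -2.43 to -0.17, unadjusted p 0.028, adjusted p 0.589). Livers of TG mice 1 and 3 were below every CTR liver, and that of TG mouse 2 lay above CTR mice 1 and 3.

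Spots repeated on an array give the noise of single spots for both genes. The Cdkn1a probe was printed 10 times on each array, and its spots on a liver array differed by a median SD of 0.12, against an SD of 0.97 between mice of one group. In the esophagus these values were 0.08 and 0.23. For Cdkn1b the median SD between spots was 0.15 in the liver and 0.12 in the esophagus, and the SD between mice 0.76 and 0.41. The fit shares the spread between the organs, so for both genes it understates that of the livers and overstates that of the esophagi. Spots of an array share 1 RNA sample, labelling and hybridization, so these values leave out the error of those steps.

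**Figure D4:**
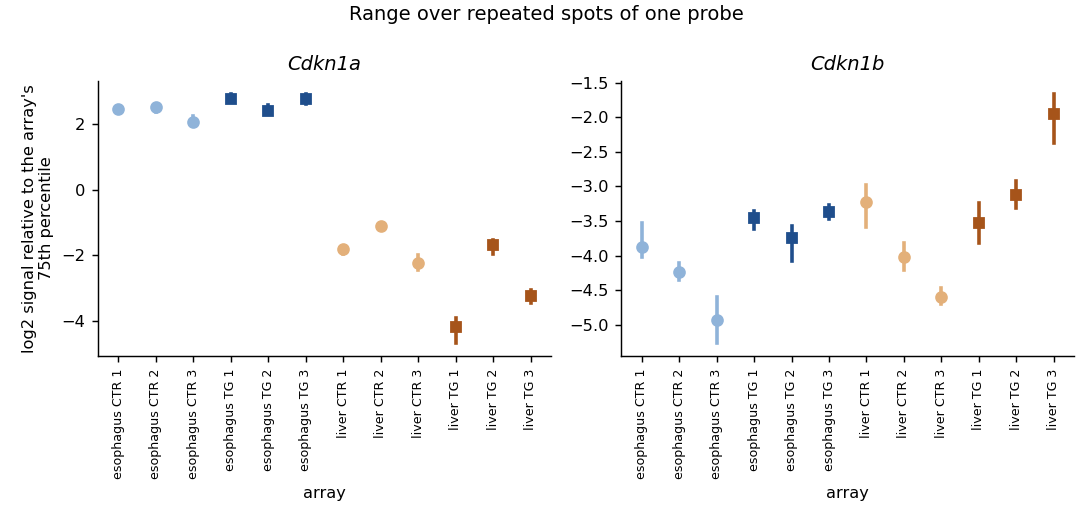
Log2 signal relative to the array's 75th percentile (y axis) of the repeated spots of the Cdkn1a and the Cdkn1b probe on each of the 12 arrays (x axis); symbols are means and lines run from the lowest to the highest of up to 10 spots. Liver TG mice 1, 2 and 3 have means of -4.17, -1.69 and -3.23 for Cdkn1a, further apart than the spots of any one array.

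The Cdkn1a difference in liver depended on single mice. Without liver TG mouse 2 it was -1.97 (adjusted p 0.12), and without liver TG mouse 1 it was -0.73 (adjusted p 0.459). It was -0.73 with normexp, -0.86 in the authors' deposited table and -1.81 with quantile normalization over 12 arrays. On slide 1, which holds 1 liver of each genotype, TG mouse 3 was below CTR mouse 2 by 2.11 (difference -2.11). The clock gene Dbp read 7.0015, 4.42 and 7.18 in livers of TG mice 1 to 3 and 4.78, 5.90 and 5.64 in CTR livers, and Per2 read 0.66, -1.73 and 0.70 and -1.60, 0.99 and 1.27. TG mouse 2 and CTR mouse 1 were the lowest livers for both. They were the highest for Arntl and Clock, genes of the same list, with -0.10 and 0.19 for Arntl and 1.81 and 1.68 for Clock. Endothelial markers were low in liver TG mouse 1, where the 10 summed to 11.1 against 19.5 to 21.5 in CTR livers. The part of these in the Cdkn1a values was not tested.

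Cdkn1b was 2.11-fold higher in TG liver, a log2 difference of 1.07 (SE 0.44, interval 0.09 to 2.06, unadjusted p 0.0348, adjusted p 0.595). TG mouse 3 was the highest liver, and the others overlapped with CTR mouse 1. Without TG mouse 3 the difference was 0.62, and with the median over both probes it was -0.08. Among the livers the second probe was well above background only in CTR mouse 3 and TG mouse 3. On the array of TG mouse 3, 81.84% of probes were well above background, the highest share of the 12, and its 75th percentile was the lowest. Its 10 striated muscle markers had a median of 2.28 over the CTR mean, while their summed signal was 2.11, against 0.891 to 6.88 in CTR livers. The 9 suprabasal keratinocyte markers had a median of 1.05 there and a sum of 4.10, against 3.13 to 3.76. The part of these in the Cdkn1b value was not tested. The remaining liver differences were 0.31 for Cdkn2c (SE 0.22), 0.22 for Cdkn2b (SE 0.22), 0.14 for Cdkn2d (SE 0.24) and -0.17 for Cdkn1c (SE 0.21), with adjusted p of 0.664 to 0.861. That of Cdkn2b turned sign with quantile normalization, and that of Cdkn2d without liver CTR mouse 3.

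Among the other pathway genes in liver none was called. Myc, a repressor of Cdkn1a and Cdkn2b, had the smallest p of the regulators, with a difference of -1.63 (unadjusted p 0.00254, adjusted p 0.574). Its signal was -0.98, -1.42 and -1.41 in TG livers and -0.46, 1.58 and -0.04 in CTR livers, with no overlap. Ddb1, a part of the ligase that degrades p21 in S phase, differed by -0.70 (adjusted p 0.574). Of 19 p53 targets other than Cdkn1a, 13 had a higher mean in TG liver, with a median of 0.11 against 0.13 over all units.

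The test of whether the genotype difference differed between the organs called 0 of 24436 units (0%), with 1216 (4.98%) at an unadjusted p under 0.05 and 0 of the 6 inhibitors among them. Cdkn1a came nearest, with a difference of differences of 1.60 (SE 0.74, interval -0.04 to 3.24, unadjusted p 0.0545, adjusted p 0.943). Cdkn2c followed at -0.58 (SE 0.31, interval -1.27 to 0.12, adjusted p 0.943). The intervals of the other 4 were -1.67 to 1.18 for Cdkn1b, -0.40 to 1.04 for Cdkn2b, -0.93 to 0.61 for Cdkn2d and -0.68 to 0.64 for Cdkn1c. A difference between the organs in the genotype effect was not shown for any of the 6.

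The genes whose array-to-array pattern was most like that of an inhibitor were sought over the 12 arrays after the mean of each organ was removed, among 10969 named genes well above background on all arrays. For Cdkn1a these were Ttc39a (Pearson r 0.88), Arl15 (0.85) and Ctnnbl1 (0.84). For Cdkn1c they were Sytl4 (0.92), Omd (0.91) and Ptprr (0.89), and for Cdkn2b Hmgn5 (0.85), Wdr45 (0.82) and Mfsd4b1 (0.82). Cdkn2c was nearest to Pitpnb (0.96), Aars2 (0.91) and Cfap298 (0.89), and Cdkn2d to Cchcr1 (0.96), Gemin8 (0.95) and Tmem209 (0.93). These arrays share slides and mice, and the highest of so many coefficients are high in any such search, so the values only describe these samples. Among the inhibitors themselves the coefficients ran from -0.52 for Cdkn2b with Cdkn2c to 0.58 for Cdkn1b with Cdkn2d. Organs could differ: the last was -0.20 over the 6 esophagus and 0.75 over the 6 liver arrays, Cdkn1b with Cdkn2c was -0.96 and 0.25, and Arl15 with Cdkn1a was 0.11 and 0.88.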

How the data were processed

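The members and the lists of related genes were chosen with earlier results of these data known. Each of the 12 arrays (mouse 4x44K, Cy3) has a deposited scanner file of spot intensity on a linear scale, made with Agilent Feature Extraction 10.7.1.1 per the file headers, which subtracted background within the array and did not scale arrays. A further set of log2 values was deposited by the authors, each column with a median near 7.27, and these matched normexp and quantile values of their own arrays. The submitters' processing notes name limma with no version. No column lacked a sample.

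Control spots and 1311 outlier spots were left out, the spots of a probe were averaged on the log2 scale, and each array's 75th percentile was subtracted; no spot was saturated. Accessions matched to RefSeq (GRCm38.p6) named 23374 probes, and 17800 unnamed ones were kept. The brightest probe stood for a gene. A unit was tested where its probe was well above background (over 0.5 of its spots) on all 3 arrays of at least 1 compared group. One limma fit (3.58.1, R 4.3.3, data.table package 1.17.8) held all 12 arrays in 4 groups without a block, with 8 residual degrees of freedom, so the spread is shared by both organs; p-values are two-sided and adjusted by Benjamini-Hochberg, with calls at 0.05. Intervals are 95% intervals of the fit. Normexp (offset 50) used the median spot signal, as no mean signal column was used. Plots used matplotlib 3.10.9 (Python 3.11.15, pandas 2.3.3), and the fit was tested on simulated data.

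Named are the 7 inhibitors, Nanog and up to 4 genes of smallest p per list and comparison. Also named are the 3 genes most correlated with each inhibitor seen on all arrays. Cdk4, Ccnd3, Fas, Gdf15, Cebpa and Foxo1 between organs and Per2 in liver fall outside that rule and were chosen after their values were seen. The labels tie esophagus and liver arrays to the same animals, and residuals of such pairs correlated at -0.06 to 0.16. Replicate numbers shared by TG and CTR mice mark no shared litter or day, and their residuals correlated at -0.15 to 0.09. The arrays lay on 5 slides. Alternatives were other scalings, filters, probe rules, slide, animal and replicate blocks, array weights and leaving out each array.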

Additional observations from a re-analysis of the deposited data

How the results depend on the processing

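The organ differences of Cdkn1a, Cdkn1c, Cdkn2b and Cdkn2c were called in both genotypes under every alternative run, as was that of Cdkn2d in CTR mice. In TG mice the number of inhibitors called was 4 to 6 over the alternatives and 4 to 5 when 1 array was left out. With the replicate block and with animals as a fixed block, the latter added after the data were seen, 4 inhibitors were called in TG mice, and Cdkn2d kept its difference of 0.69; the block changed no other call on an inhibitor.

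No inhibitor was called between TG and CTR mice under any alternative. Counts of called units rose from 0 in esophagus to 4 with normexp, 2 with the authors' table and with a common floor, and 1 with either quantile normalization, slide as a fixed block, array weights or only the compared arrays. Leaving out both esophagi of animals TG 1 and CTR 1, also added later, gave 3. For the difference between organs it was 1 with normexp, a common floor, the authors' table or quantile normalization. Leaving out 1 array gave 0 to 7 units in esophagus (7 without TG mouse 2), 0 to 18 in liver (18 without TG mouse 2, 6 without TG mouse 1, 5 without CTR mouse 1) and 0 to 1 for the difference.

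Signs of uncalled values turned as follows. Cdkn2b in liver was -0.071 and -0.066 with quantile normalization over 12 arrays and within organs and -0.088 in the authors' table. Cdkn1b between organs was 0.071 in CTR and 0.21 in TG mice with quantile normalization within organs, and with the median over probes it was -0.22 in esophagus and -0.082 in liver. Its difference of differences was 0.048 and 0.14 with quantile normalization over 12 arrays and within organs, and 0.24 with slide as a fixed block. That block also turned Cdkn2d in esophagus to 0.23 and the difference of differences of Cdkn2d to 0.067 and of Cdkn1c to 0.063; Cdkn1c was 0.10 with array weights and 0.052 without both esophagi named above. With 1 array left out, ranges that cross 0 were -0.089 to 0.034 for Cdkn2d in esophagus and -0.087 to 0.36 in liver, and, for the difference of differences, -0.61 to 0.21 for Cdkn1b, -0.18 to 0.17 for Cdkn1c and -0.38 to 0.071 for Cdkn2d. The cause was not tested. Dim signal limits Cdkn1b, Cdkn2a and Nanog.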
